A study of Mus musculus with 91 samples.

Results

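The epiblast (Epi) of control mouse embryos was compared between embryonic day 6.5 (E6.5) and E7.5, the day over which gastrulation starts, using small RNA libraries, 4 from the earlier stage and 3 from the later. These 7 libraries are the control Epi libraries of the series by their titles, out of 91 in all. The study made embryos lacking DNA methyltransferases by base editing of zygotes and measured their microRNAs (miRNAs) beside those of controls, in Epi and in extraembryonic ectoderm (Exe), the trophoblast tissue next to the Epi. Every library began with 100 pg of total RNA and was made by Cas9-assisted small RNA sequencing (CAS-seq), in which Cas9 cuts adapter products that carry no insert. Zygotes came from B6D2F1 females mated to Oct4-EGFP males on a C57BL/6J background, which the labels give as C57BL/6 male X F1 female. The control carries no named edited allele in the labels. Image captions of the study call its control embryos derived by IMGZ, its system of editing zygotes. The sources used here do not say whether a control zygote received any of the editing reagents. Embryos were collected from the decidua, and the study's methods describe parting Epi from Exe with a needle for its mRNA libraries. Nothing states whether a small RNA library holds 1 embryo or several, so the p-values measure only the spread between these libraries, which may be technical.

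A miRNA is a short RNA that lowers the output of mRNAs it pairs with, mainly through its seed, bases 2 to 8 from its 5′ end. Many miRNAs are cut from clustered hairpins on 1 transcript, each hairpin giving a 5p and a 3p arm. In the mouse embryo the miR-290 cluster (miR-290 to miR-295) is known from naive embryonic stem cells and trophoblast, and the miR-302 cluster (miR-302a to miR-302d with miR-367) from the primed pluripotent cells of the Epi. At gastrulation the Epi forms the primitive streak, and its descendants become mesoderm, definitive endoderm and ectoderm, in which Hox genes and their embedded miRNAs come on.

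The sequences on which the stage change turns are given here with the seed in capitals, from RefSeq (GRCm38.p6). The first set shows that both pluripotency clusters, on different chromosomes, carry the same seed, so that one can be weighed against the other.

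miR-302b-3p: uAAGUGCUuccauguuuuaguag
miR-302d-3p: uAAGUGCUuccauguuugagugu
miR-295-3p: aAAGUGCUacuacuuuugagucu
miR-294-3p: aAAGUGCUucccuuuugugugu
miR-291a-3p: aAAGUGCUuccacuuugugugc

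The second set is the miR-92 family, whose seed held a far larger share at E7.5. The third holds the miR-10 pair of the Hox clusters and miR-615-3p. Among called miRNAs with a mean of at least 100 CPM at the higher stage, miR-615-3p had the largest fitted rise. No E6.5 library had more than 1 count of it, so its rank is not a measured size.

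miR-92a-3p: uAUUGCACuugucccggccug
miR-92b-3p: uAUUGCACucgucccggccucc
miR-363-3p: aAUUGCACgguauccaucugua

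miR-10a-5p: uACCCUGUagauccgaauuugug
miR-10b-5p: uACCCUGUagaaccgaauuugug
miR-615-3p: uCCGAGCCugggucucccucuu

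The last set pairs miR-291b-5p, which had the largest fitted fall among miRNAs with a mean of at least 100 CPM at the higher stage, with the miRNA of the same seed from the neighbouring hairpin, and miR-351-5p with miR-125b-5p, which has the same seed but lies elsewhere.

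miR-291b-5p: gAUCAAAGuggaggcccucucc
miR-291a-5p: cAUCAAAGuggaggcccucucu
miR-351-5p: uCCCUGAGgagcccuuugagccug
miR-125b-5p: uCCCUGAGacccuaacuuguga

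The E6.5 libraries held 281158, 286288, 447629 and 458837 counts and the E7.5 libraries 1623256, 1879270 and 2325698, so the E7.5 libraries were deeper. In the E6.5 libraries 388 to 453 miRNAs had at least 10 counts, and in the E7.5 libraries 588 to 632. With every library thinned at random to 281158 counts, the numbers were 377 to 394 and 374 to 384, so the surplus at E7.5 was not there at equal depth. Levels are given as CPM, the counts of a miRNA scaled to a common miRNA total per library. The E6.5 libraries fell into 2 pairs. Replicates 1 and 2 held 2.84% and 4.26% of their counts on the Sfmbt2 cluster, a set of miRNAs of the trophoblast, against 1.21% and 0.985% in replicates 3 and 4. Replicates 3 and 4 held 22.6% and 23.3% on the miR-302 cluster against 17.9% and 14.9%. Where leaving out a pair moved a list's count of calls by over 1.5 times, the count without that pair is given.

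The tissue label was checked against its markers. The miR-302 cluster held 14.9% to 23.3% of the counts in the 7 Epi libraries and 1.99% to 5.05% in the 8 control Exe libraries of both stages. The Sfmbt2 cluster held 0.303% to 4.26% in the Epi libraries and 6.40% to 11.04% in the Exe libraries. Neither pair of ranges overlapped, and both directions match the tissue labels. The miR-290 cluster, also on the list of Epi markers, went the other way. It held 15.2% to 16.8% in E6.5 Epi against 16.85% to 24.78% in E6.5 Exe. At E7.5 it held 4.33% to 4.44% in Epi against 12.3% to 15.8% in Exe.

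The miRNA profile of the Epi moved widely between the stages, toward the miR-92 family, the Hox-cluster miRNAs, miR-375-3p and the miR-322 cluster and away from the miR-290 and Sfmbt2 clusters. Of 474 miRNAs tested, 80 (16.9%) were higher and 83 (17.5%) lower at E7.5, with an adjusted p under 0.05 and an absolute log2 fold change above 0.5, the call used throughout. These 163 miRNAs are 34.4% of those tested, and the counts on each list below are to be read against these shares. The median log2 fold change over all 474 was 0.02. Where a miRNA's values are followed by parentheses, these give the log2 fold change of E7.5 over E6.5 ± its SE (4 libraries against 3) and the adjusted p of edgeR's quasi-likelihood test. A miRNA seen at 1 stage only passed the filter on low counts through that stage and had to differ, so the counts over the tested members of a list are descriptions. Bulk libraries cannot tell fewer cells of a type from less RNA per cell. The CPM of 217 miRNAs (45.8%) did not overlap between the stages, 103 (21.7%) of them higher and 114 (24.1%) lower at E7.5. Pearson's r of log2(CPM + 5) across the tested miRNAs, which are not independent replicates, was 0.933 to 0.981 within E6.5, 0.955 to 0.958 within E7.5 and 0.794 to 0.859 between the stages.

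**Figure D1:**
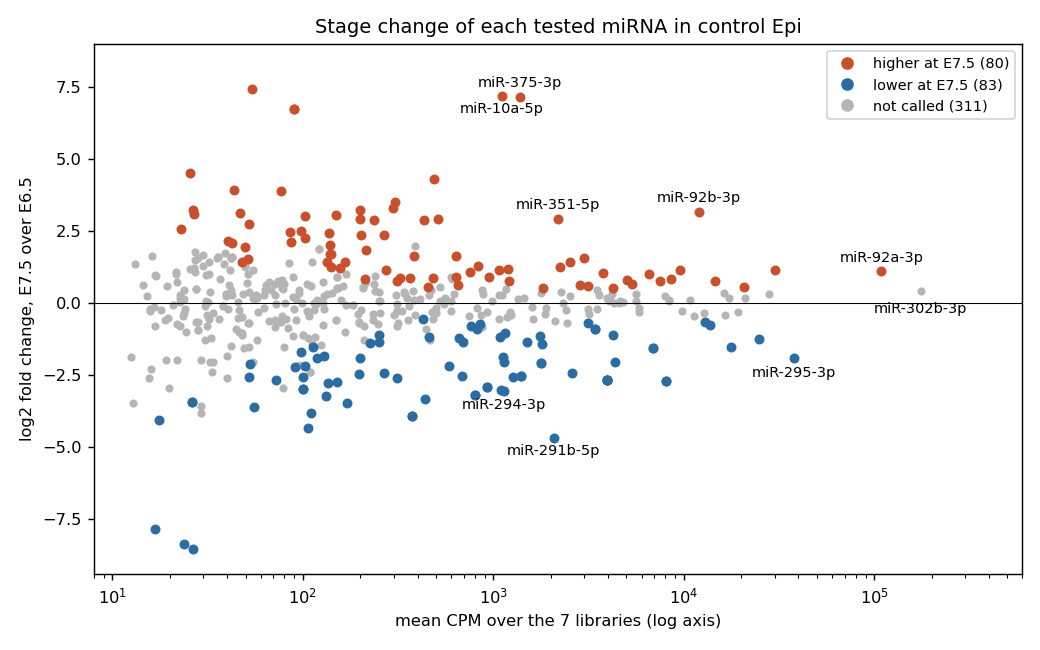
Mean CPM over the 7 libraries (x, log axis) against the log2 fold change of E7.5 over E6.5 (y) for the 474 miRNAs tested, with the 80 higher and 83 lower at E7.5 in colour and the 311 not called in grey. The calls lie at all levels of abundance, and miR-302b-3p, the most abundant, lies near the middle.

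The counts also became more concentrated. The 10 most abundant miRNAs of a library held 43.9% to 48.1% of its counts at E6.5 and 54.0% to 55.9% at E7.5. The leading miRNA was miR-302b-3p at both stages, and miR-92a-3p was the next at both. At E7.5 miR-92b-3p, miR-26a-5p, miR-298-5p, miR-30c-5p and miR-409-3p were among the 10 highest by mean, in place of miR-295-3p, miR-293-3p, miR-291a-5p, miR-182-5p and miR-363-3p at E6.5. miR-5099, on both lists, measured 25411, 24591, 13335 and 18867 CPM at E6.5 and 40475, 39325 and 47999 CPM at E7.5 (log2 fold change 1.15 ± 0.22, adjusted p = 0.00389). miR-26a-5p, also higher, measured 17776, 16724, 19121 and 17891 CPM at E6.5 and 26052, 25728 and 21294 CPM at E7.5 (0.55 ± 0.10, adjusted p = 0.00229).

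The miR-290 cluster fell as a block. This cluster lies within chr7:3218919-3220841 (GRCm38, plus strand) as far as the hairpins Mir291a to Mir295 reach, with no annotated host gene. All 18 of its mature miRNAs were tested, 17 were lower at E7.5 and none was higher, with a median log2 fold change of -2.25, and the CPM of all 18 did not overlap between the stages. Of the 18, 3 passed the filter on low counts through the E6.5 libraries alone. The member not called, miR-291b-3p, named after its values were seen, had a log2 fold change of -3.81 ± 1.43, adjusted p = 0.0660. Among the 18 entries are 4 pairs with the same or nearly the same counts, since antisense or near-identical entries took the same reads. The cluster held 15.2%, 16.8%, 15.3% and 15.2% of the counts at E6.5 and 4.34%, 4.33% and 4.44% at E7.5. The mean share was 15.6% ± 0.803 (SD, n = 4) against 4.37% ± 0.0621 (SD, n = 3).

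Its most abundant product was miR-295-3p, which promotes the fast cell cycle of embryonic stem cells. miR-295-3p measured 56307, 58601, 55191 and 53490 CPM at E6.5 and 13954, 13956 and 13703 CPM at E7.5. The E7.5 libraries were all far below the E6.5 libraries, and the spread within each stage was small (log2 fold change -1.91 ± 0.09, adjusted p = 1.89e-06). miR-293-3p, whose seed differs from that of its neighbours, measured 32834, 36261, 31202 and 32918 CPM at E6.5 and 12990, 13026 and 13783 CPM at E7.5. It fell less than miR-295-3p, with a log2 fold change of -1.23 ± 0.10 (adjusted p = 3.95e-05). miR-294-3p measured 1181, 1697, 2393 and 2103 CPM at E6.5 and 216, 243 and 157 CPM at E7.5. It fell the furthest of the 3p arms with the shared seed printed above (-3.06 ± 0.29, adjusted p = 5.76e-05).

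The largest fall of a miRNA with at least 100 CPM belonged to miR-291b-5p, from the hairpin at chr7:3219482-3219560. It measured 4663, 5168, 2165 and 2142 CPM at E6.5 and 131, 170 and 87.5 CPM at E7.5. The E6.5 libraries split by pair, with replicates 1 and 2 above replicates 3 and 4, and all 4 were far above the E7.5 libraries (-4.68 ± 0.46, adjusted p = 6.55e-05). Left without E6.5 replicates 1 and 2 the log2 fold change was -3.96, and without replicates 3 and 4 it was -5.17. miR-291a-5p has the same seed and lies in another hairpin of the cluster, at chr7:3218919-3219000. It measured 26376, 28176, 21737 and 23727 CPM at E6.5 and 7964, 7852 and 8600 CPM at E7.5. Both miRNAs fell, but miR-291a-5p by less (-1.52 ± 0.13, adjusted p = 4.97e-05). The seed they share, AUCAAAG, held 2.85% of the counts at E6.5 and 0.827% at E7.5.

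The miR-302 cluster, on chromosome 3, showed no such block change. Of its 10 mature miRNAs, all tested, 1 was higher, 1 was lower and 8 were not called, with a median of 0.08. Its share of the counts was 17.9%, 14.9%, 22.6% and 23.3% at E6.5 and 22.98%, 23.2% and 22.2% at E7.5. The stages overlapped, and E6.5 replicates 3 and 4 were at the level of E7.5.

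miR-302b-3p (chr3:127545275-127545297, plus strand), the leading miRNA of the primed Epi, measured 150359, 122824, 174696 and 187147 CPM at E6.5 and 198227, 201821 and 190875 CPM at E7.5. The E7.5 libraries were all above the E6.5 libraries, but E6.5 replicate 4 came close, and the log2 fold change of 0.42 ± 0.12 (adjusted p = 0.0202) stayed under the 0.5 that a call needs. It was 0.22 without E6.5 replicates 1 and 2 and 0.60 without replicates 3 and 4. The other arm counts of the cluster were led by miR-302a-5p, with 11848, 11136, 23464 and 21241 CPM at E6.5 and 9494, 9450 and 8941 CPM at E7.5. All 3 E7.5 libraries were below all E6.5 libraries and the miRNA was called (-0.75 ± 0.25, adjusted p = 0.0432), a call kept in 13 of 20 alternatives. miR-302c-5p was called in the other direction (0.59 ± 0.19, adjusted p = 0.0404) and kept its call in 8 of 20 alternatives. Without E6.5 replicates 1 and 2, 3 of the 10 were lower and none higher, and without replicates 3 and 4, 5 were higher and none lower, so the direction of this cluster rests on which E6.5 pair is used.

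The seed AAGUGCU held overlapping shares at both stages, with a smaller part from the miR-290 cluster at E7.5. The larger part was from the miR-302 cluster at either stage. The 5 miRNAs with this seed and a sequence in the table used, printed above, held 21.2%, 18.7%, 23.9% and 24.9% of the counts at E6.5 and 21.8%, 22.0% and 20.9% at E7.5. The means were 22.2% ± 2.81 (SD, n = 4) and 21.6% ± 0.567 (SD, n = 3), and the stages overlapped. The part from the miR-290 cluster (miR-295-3p, miR-294-3p and miR-291a-3p) was 5.82% ± 0.189 at E6.5 and 1.42% ± 0.0196 at E7.5. The part from the miR-302 cluster (miR-302b-3p and miR-302d-3p) was 16.3% ± 2.98 and 20.2% ± 0.548, and E6.5 replicate 4, at 19.3%, was just under the lowest E7.5 library, at 19.5%. miR-302a-3p and miR-302c-3p have no sequence in the table and were left out of these sums.

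**Figure D2:**
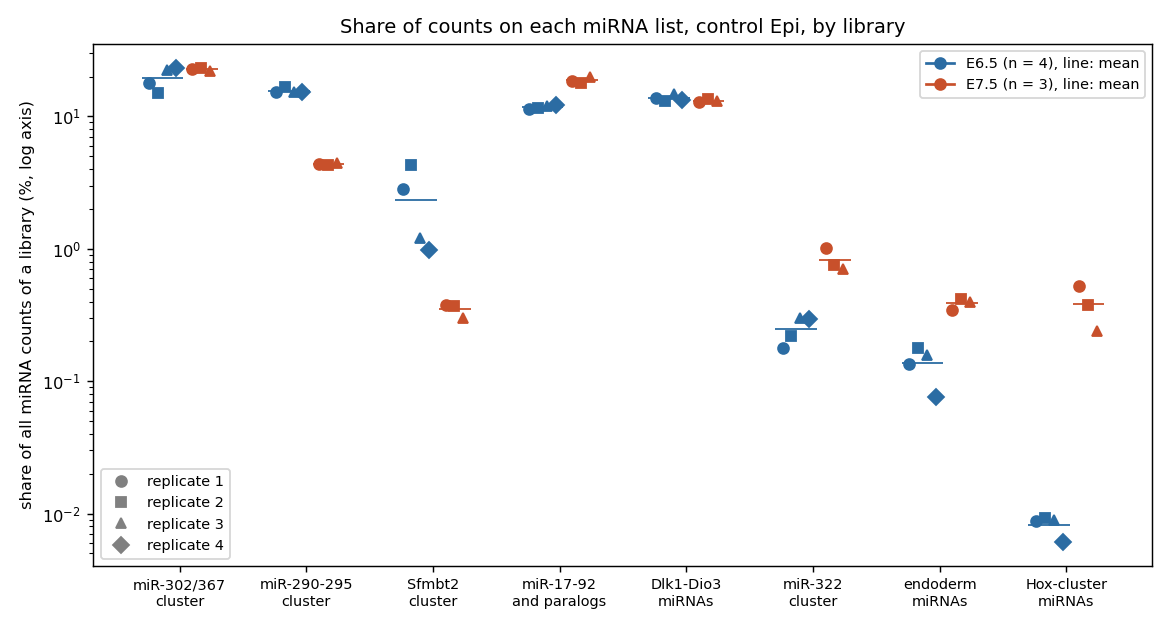
Share of all miRNA counts of a library (%, log axis) held by 8 lists of miRNAs, 1 point per library, with E6.5 (n = 4) and E7.5 (n = 3) in different colours, the marker shape giving the replicate and the line the mean. The miR-290 cluster held about 15% at E6.5 and about 4% at E7.5, the Hox-cluster miRNAs under 0.01% and then 0.240% or more, and the E6.5 libraries split into pairs on the Sfmbt2 and miR-302 clusters.

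The Sfmbt2 cluster was the other block that fell. Sfmbt2 (chr2:10370510-10595253) is an imprinted Polycomb-group gene needed in the trophoblast, and 68 of the 78 listed miRNAs of the miR-297, miR-466, miR-467 and miR-669 families lie in it. Of the 78, 38 were tested and 8 were at 0 in all 7 libraries. Among the 38, 28 were lower, none was higher and 10 were not called, with a median log2 fold change of -2.65. Of the 38, 19 passed the filter through the E6.5 libraries alone. Many of these entries are near-identical copies that take the same reads, so the 28 are not separate measurements. The share of the cluster, with such copies counted once, was 2.84%, 4.26%, 1.21% and 0.985% at E6.5 and 0.378%, 0.368% and 0.303% at E7.5. All E7.5 libraries were below all E6.5 libraries, but the E6.5 pairs differed between themselves. Since the E6.5 libraries held between 0.985% and 4.26% and the control Exe libraries of that stage 6.72% to 11.04%, the level of these trophoblast miRNAs in the Epi libraries moved with the stage and with the pair. Its part in the results was not tested. The fall was present without E6.5 replicates 1 and 2 (21 lower and none higher of 45 tested, median -1.59) and without replicates 3 and 4 (33 lower and none higher of 48, median -3.34). The miR-290 share was 15.2% and 16.8% in the pair with more Sfmbt2 miRNAs and 15.3% and 15.2% in the other. Single members of that cluster did split by pair, miR-291b-5p higher in replicates 1 and 2 and miR-294-3p in replicates 3 and 4. What this means for the fall of that cluster was not tested.

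The most abundant group of the cluster was miR-466a-3p with miR-466c-3p and miR-466e-3p, which cannot be told apart by these counts. miR-466c-3p measured 8034, 11830, 2665 and 2186 CPM at E6.5 and 1023, 926 and 833 CPM at E7.5. E7.5 was the lowest, and E6.5 replicates 1 and 2 were well above replicates 3 and 4 (-2.65 ± 0.60, adjusted p = 0.00734). miR-467a-3p and miR-467d-3p had identical counts and measured 643, 1127, 416 and 327 CPM at E6.5 and 33.1, 42 and 40.7 CPM at E7.5, with every E7.5 library far below every E6.5 library (-3.93 ± 0.49, adjusted p = 3.03e-04). miR-669o-5p, at 24.4, 117, 31.3 and 13.1 CPM at E6.5, had no count in any E7.5 library, which against 3 counts per library is at least 29.5-fold lower. That bound rests on E6.5 replicate 2, and without it the bound was 14.5-fold. miR-669f-3p lost its call without E6.5 replicates 1 and 2 (adjusted p = 0.105), as did miR-466h-5p (log2 fold change -1.59, adjusted p = 0.0674).

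**Figure D3:**
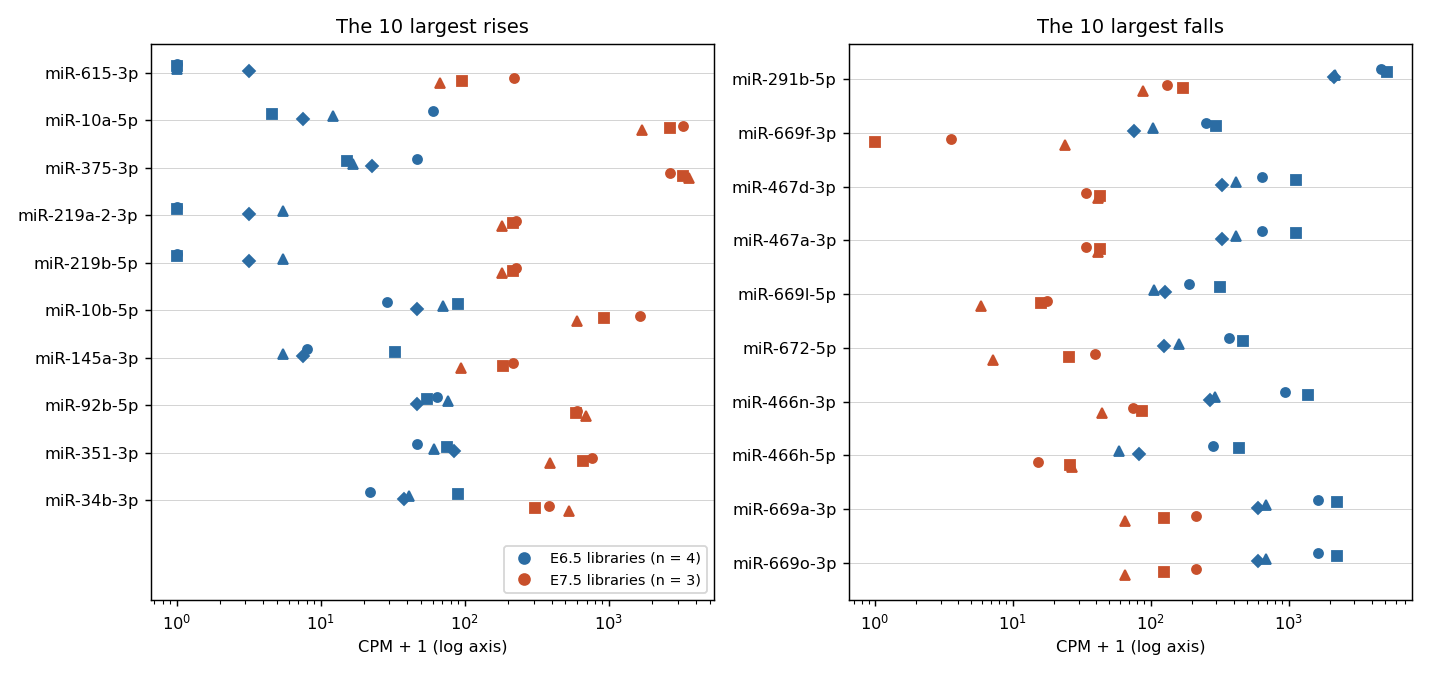
CPM + 1 (log axis) in each of the 7 libraries for the 10 largest rises (left) and the 10 largest falls (right) among called miRNAs whose CPM did not overlap between the stages and reached a mean of 100 CPM at 1 stage. Colour gives the stage and marker shape the replicate, and in every row the libraries of both stages lie apart.

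By fitted log2 fold change, the 10 largest rises were led by miRNAs next to Hox genes. Of the 10 listed Hox-cluster miRNAs, 4 were tested and all 4 were called higher at E7.5, where 16.9% of all miRNAs were. Of the 4, miR-615-3p, miR-10b-3p and miR-10a-5p passed the filter on low counts through the E7.5 libraries alone, so only miR-10b-5p could have been tested without being high there, and nothing is read from the count. The other 6 were not tested, and 3 of them, the miR-196a entries, were at 0 in all 7 libraries. The share of the list was 0.00873%, 0.00925%, 0.00894% and 0.00610% at E6.5 and 0.525%, 0.377% and 0.240% at E7.5, and the stages did not overlap.

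miR-10a-5p (chr11:96317186-96317208, plus strand), embedded in the Hoxb cluster, measured 59.4, 3.56, 11.2 and 6.54 CPM at E6.5 and 3265, 2676 and 1707 CPM at E7.5. The E6.5 libraries were at the level of a few counts apart from replicate 1, and every E7.5 library was far above that replicate too (7.20 ± 0.68, adjusted p = 5.76e-05). miR-10b-5p (chr2:74726074-74726096, plus strand), in an intron of Hoxd3 and Hoxd4, has the same seed and measured 27.9, 88.9, 69.2 and 45.8 CPM at E6.5 and 1645, 924 and 600 CPM at E7.5. Its E7.5 libraries spread more widely than those of miR-10a-5p, from 600 to 1645 CPM, and all were well above the highest E6.5 library (4.30 ± 0.46, adjusted p = 1.08e-04). Its partner arm miR-10b-3p had 0 to 3 counts in each E6.5 library and was at least 6.55-fold higher at E7.5. miR-615-3p, from an intron of Hoxc5 (hairpin chr15:103014910-103015001), had 0, 0, 0 and 1 counts at E6.5 and 506, 177 and 107 at E7.5, where it measured 218, 94.2 and 65.9 CPM. Against 3 counts per E6.5 library it was at least 14.6-fold higher, and without E7.5 replicate 1, the highest library, at least 9.31-fold.

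miR-375-3p rose as far as miR-10a-5p and with less spread. It is known from the pancreatic islet and other endoderm-derived cells, and its hairpin lies at chr1:74900658-74900721 (minus strand). It measured 45.4, 14.2, 15.6 and 21.8 CPM at E6.5 and 2676, 3260 and 3577 CPM at E7.5. The stages lay far apart (7.17 ± 0.36, adjusted p = 2.36e-06). The other endoderm miRNAs did not share this rise. Of 13 listed, 3 were tested and 1, miR-375-3p, which passed the filter through E7.5, was called, and 5 were at 0 in all 7 libraries. Without E6.5 replicates 3 and 4, 1 was higher and 1 lower of 5. miR-192-5p measured 1083, 1401, 1285 and 617 CPM at E6.5 and 697, 680 and 360 CPM at E7.5, with overlapping stages and a log2 fold change of -0.81 ± 0.33, adjusted p = 0.0875. miR-194-5p, of the same cluster, also overlapped and was not called. The summed endoderm list was 0.0761% to 0.177% at E6.5 and 0.346% to 0.418% at E7.5, most of it miR-375-3p at the later stage.

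miR-219a-2-3p, with miR-219b-5p counted on the same hairpin in the opposite strand and with identical counts, had 0, 0, 2 and 1 counts at E6.5. At E7.5 it reached 227, 217 and 180 CPM, at least 24.2-fold higher than 3 counts per E6.5 library allow. The counts do not separate the strands. The family is known from the neural lineage, where it promotes oligodendrocyte maturation. Of the 14 listed neural miRNAs 7 were tested, and these entries of miR-219, which passed the filter through E7.5 alone, were the 2 called. miR-124-3p, the most abundant miRNA of neurons, measured 41.9, 56.9, 58.1 and 32.7 CPM at E6.5 and 21.5, 44.2 and 108 CPM at E7.5, with overlapping stages (0.40 ± 0.59, adjusted p = 0.629).

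Mesenchymal miRNAs were low at both stages, with a summed share of 0.00894% to 0.0139% at E6.5 and 0.0397% to 0.0628% at E7.5. Of 9 listed, 5 were tested, 3 of them through E7.5 alone, 2 were higher and none was lower, and miR-214-3p was at 0 throughout. miR-143-3p, of smooth muscle, measured 55.9, 32, 69.2 and 43.6 CPM at E6.5 and 311, 284 and 170 CPM at E7.5, with all E7.5 libraries above all E6.5 libraries (2.45 ± 0.36, adjusted p = 7.76e-04). Its cluster neighbour miR-145a-3p also rose (3.89 ± 0.69, adjusted p = 0.00241). miR-133a-3p, of cardiac and skeletal muscle, measured 24.4, 78.2, 31.3 and 21.8 CPM at E6.5 and 390, 382 and 120 CPM at E7.5 and was the 1 tested miRNA of its list of 14 (3.06 ± 0.58, adjusted p = 0.00341). The muscle list summed to 0.00262% to 0.00783% at E6.5 and 0.0149% to 0.0424% at E7.5, and 4 of its members, among them miR-206-3p and miR-499-5p, were at 0 in all 7 libraries.

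Blood and endothelial miRNAs did not move as a group. Their summed share was 0.0665% to 0.0726% at E6.5 and 0.0535% to 0.0850% at E7.5, the stages overlapped, and of 17 listed 10 were tested, none was higher and 1 was lower. Without E6.5 replicates 1 and 2, 2 were higher and 1 lower of 13. The erythroid miR-451a had at most 9 counts in any library, and the myeloid miR-223-3p was at 0 in all 7. The 1 lower member was miR-142a-5p, of white blood cells, with 213, 220, 198.8 and 231 CPM at E6.5 and 58, 23.9 and 4.31 CPM at E7.5 (-2.78 ± 0.71, adjusted p = 0.0131). miR-126a-3p, from the endothelial gene Egfl7, measured 210, 149, 183.2 and 161 CPM at E6.5 and 411, 236 and 141.1 CPM at E7.5, and the stages overlapped. Surface ectoderm miRNAs were 0.0708% to 0.0982% at E6.5 and 0.106% to 0.149% at E7.5. None of their 4 tested entries was called, and miR-203-3p was high in E7.5 replicates 2 and 3 (325 and 261 CPM) but not in replicate 1 (28.4 CPM). The part of these cell types in the stage change was not tested.

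**Figure D4:**
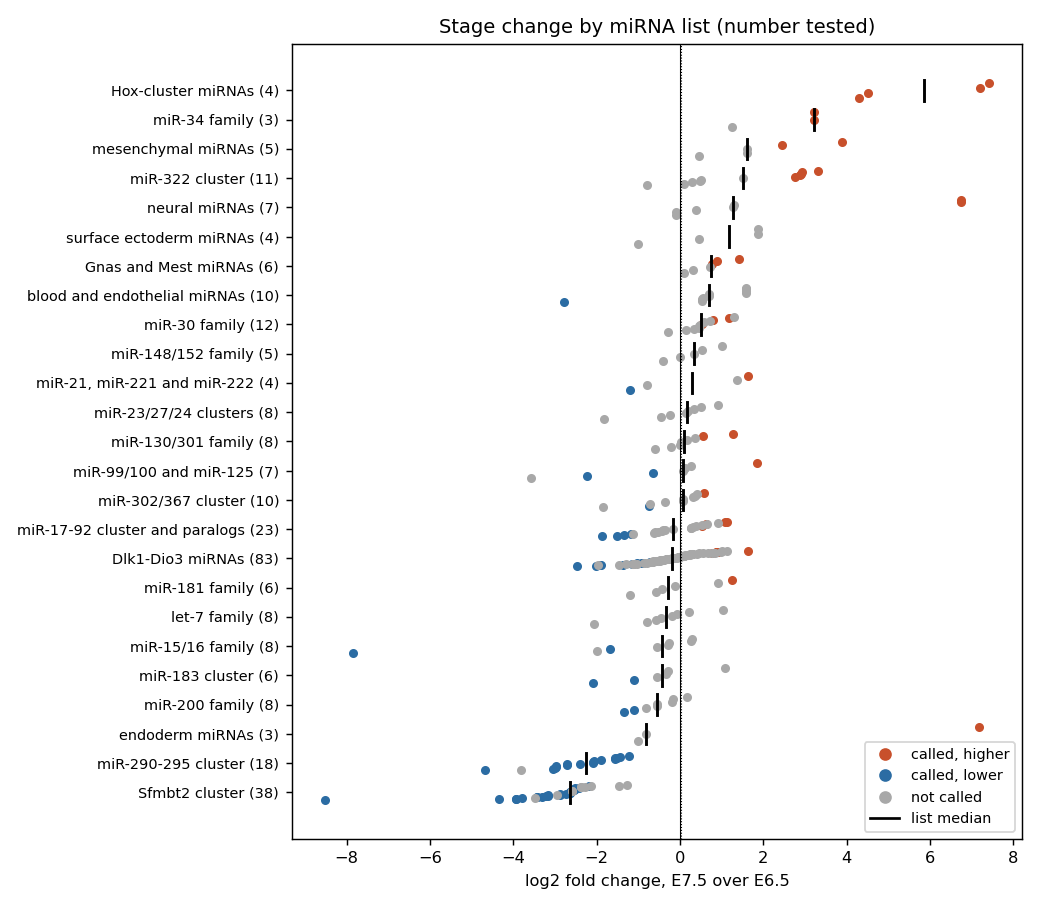
Log2 fold change of E7.5 over E6.5 for each tested miRNA of the lists with at least 3 tested members, with called miRNAs in colour, the list median as a black bar and the median over all 474 miRNAs (0.02) as a dotted line. The Hox-cluster list lies highest (median 5.86), and the Sfmbt2 and miR-290 lists lowest (medians -2.65 and -2.25).

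The miR-17-92 cluster with its paralogs held a larger share at E7.5, but its members moved in both directions. miR-17-92 is a growth-promoting cluster with paralogs on other chromosomes, and its members split by seed. The share of the list was 11.3%, 11.6%, 12.1% and 12.2% at E6.5 and 18.6%, 17.9% and 19.8% at E7.5, or 11.8% ± 0.403 (SD, n = 4) against 18.8% ± 0.983 (SD, n = 3). Of 27 listed miRNAs 23 were tested, 4 were higher and 4 lower, with a median of -0.17. The larger share was mostly miR-92a-3p, which has 2 genes that the counts cannot tell apart. The copy at chr14:115044476-115044496 (plus strand) lies in an exon of the host transcript Mir17hg. miR-92a-3p measured 80255, 82740, 66115 and 73630 CPM at E6.5 and 149714, 145108 and 165982 CPM at E7.5. No library overlapped (1.12 ± 0.11, adjusted p = 6.11e-05). The other 3 higher members were miR-25-5p (1.09), miR-20a-3p (0.63) and miR-92a-2-5p (0.52), the last 2 named after their values were seen.

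The 4 lower members were 5p and 3p arms with the seeds of miR-17 and miR-19. miR-106a-5p measured 772, 946, 2710 and 2169 CPM at E6.5 and 506, 334.7 and 396 CPM at E7.5, and miR-20b-5p, from the same X-linked paralog, fell as well (-1.33 ± 0.38, adjusted p = 0.0212). For miR-106a-5p, E6.5 replicates 3 and 4 were well above replicates 1 and 2. The log2 fold change of miR-20a-5p was -1.18 ± 0.39, adjusted p = 0.0422, and that of miR-19a-3p was -1.52 ± 0.45, adjusted p = 0.0261. At equal depth miR-19a-3p lost its call (log2 fold change -1.39). The seed AAAGUGC, of miR-17, miR-20, miR-93 and miR-106, held 0.927% of the counts at E6.5 and 0.431% at E7.5. Without E6.5 replicates 1 and 2, 3 miRNAs of the list were higher and 9 lower of 26, and without replicates 3 and 4, 3 were higher and 1 lower of 27, so the count of lower members rests on replicates 3 and 4.

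miR-92b-3p, the family member from a locus of its own (chr3:89227126-89227147, minus strand) and known from neural progenitors, rose more than miR-92a-3p. It measured 3542, 3226, 2203 and 2570 CPM at E6.5 and 21046, 24792 and 26412 CPM at E7.5, and no E6.5 library came near the E7.5 level (3.16 ± 0.19, adjusted p = 7.16e-06). Its partner arm miR-92b-5p measured 62.9, 53.4, 76 and 45.8 CPM at E6.5 and 602, 592 and 689 CPM at E7.5 (3.51 ± 0.24, adjusted p = 1.20e-05), so both arms of this hairpin rose alike. miR-363-3p, with the same seed but from the X-linked paralog, measured 14318, 14629, 24795 and 21432 CPM at E6.5 and 15275, 12965 and 11331 CPM at E7.5. Its stages overlapped, and E6.5 replicates 3 and 4 were the highest (-0.40 ± 0.20, adjusted p = 0.153). Over all 6 miRNAs with the seed AUUGCAC the share was 10.6%, 10.8%, 10.2% and 10.6% at E6.5 and 19.5%, 19.2% and 21.2% at E7.5. At E7.5 this seed came close to the 21.6% of AAGUGCU.

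The miR-322 cluster, on the X chromosome and linked to cell cycle exit and mesoderm, rose for 5 of its 11 tested members of 13 listed, with none lower and a median of 1.51. Its share was 0.179%, 0.220%, 0.302% and 0.294% at E6.5 and 1.01%, 0.760% and 0.707% at E7.5. miR-351-5p (hairpin chrX:53053255-53053353, minus strand) was the most abundant and measured 419, 704, 594 and 715 CPM at E6.5 and 5432, 3755 and 3682 CPM at E7.5. Its E7.5 libraries were all several-fold above the highest E6.5 library (2.92 ± 0.25, adjusted p = 3.95e-05). miR-322-3p measured 80.3, 185, 140.7 and 168 CPM at E6.5 and 1385, 1018 and 628 CPM at E7.5 (2.92 ± 0.36, adjusted p = 3.03e-04), and miR-351-3p rose too (3.30 ± 0.33, adjusted p = 6.74e-05), as did both arms of miR-503 (2.76 for 5p and 2.89 for 3p). Not all of the cluster moved. miR-450a-5p measured 754, 701, 1376 and 1203 CPM at E6.5 and 1154, 1046 and 1217 CPM at E7.5, and the stages overlapped (0.29 ± 0.24, adjusted p = 0.385).

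miR-351-5p shares its seed with the miR-125 family, the vertebrate relatives of lin-4. miR-125b-5p rose from a low level, with 181.6, 78.2, 44.7 and 120 CPM at E6.5 and 296.7, 457 and 317 CPM at E7.5 (1.85 ± 0.44, adjusted p = 0.00964). miR-125a-5p, the abundant member, measured 13081, 5662, 3210 and 11468 CPM at E6.5 and 9272, 9488 and 6652 CPM at E7.5, overlapped between the stages and varied widely within E6.5 (0.11 ± 0.43, adjusted p = 0.855). Its cluster neighbour miR-99b-5p measured 16497, 17033, 14496 and 14341 CPM at E6.5 and 8510, 9187 and 9969 CPM at E7.5 and fell (-0.66 ± 0.12, adjusted p = 0.00276). let-7 miRNAs, which mark differentiated cells, stayed low. Of 22 listed, 10 were at 0 in all 7 libraries, 8 were tested and none was called, with a median of -0.33. Their share was 0.0911% to 0.153% at E6.5 and 0.0667% to 0.0890% at E7.5. let-7b-5p was at 23.97 CPM or less at E6.5, at 11.6, 1.06 and 48.7 CPM at E7.5, and was not tested.

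The miR-99, miR-100 and miR-125 families together had 1 higher and 2 lower members of 7 tested. Of the 7, 3 passed the filter through E6.5 alone.

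Imprinted miRNAs did not move together. The Igf2-H19 list had 1 higher and none lower of 2 tested (2 higher without either E6.5 pair, with medians of 4.15 without replicates 1 and 2 and 1.64 without replicates 3 and 4), and the Gnas and Mest list 3 higher and none lower of 6. miR-483-3p, in an intron of the growth factor gene Igf2 (hairpin chr7:142654924-142654996, minus strand), measured 129, 274, 51.4 and 41.4 CPM at E6.5 and 861, 880 and 808 CPM at E7.5. All E7.5 libraries were higher, and E6.5 replicates 1 and 2 were above replicates 3 and 4 (2.90 ± 0.59, adjusted p = 0.00437). miR-298-5p, of the Gnas domain, measured 10287, 9500, 13551 and 13491 CPM at E6.5 and 18907, 18073 and 18500 CPM at E7.5, with no overlap between the stages (0.77 ± 0.13, adjusted p = 0.00205). miR-296-3p, of the same domain, measured 569, 612, 885 and 841 CPM at E6.5 and 1125, 1127 and 1513 CPM at E7.5 (0.90 ± 0.21, adjusted p = 0.00928), and miR-296-5p also rose (1.43). miR-335-5p, in an intron of Mest, measured 6647, 4826, 5980 and 5239 CPM at E6.5 and 6874, 5578 and 4371 CPM at E7.5 and was not called (0.09 ± 0.18, adjusted p = 0.695).

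The Dlk1-Dio3 region of chromosome 12 holds the largest group, with 113 listed miRNAs. Of these 83 were tested, 6 were higher and 13 lower, 19 of 83 against 34.4% of all miRNAs tested, and the median was -0.18. Without E6.5 replicates 1 and 2 it was 8 higher and 17 lower of 100, and without replicates 3 and 4 it was 4 higher and 8 lower of 96. Of the 83 tested, 7 passed the filter through E6.5 alone. The share of the region was 13.7% ± 0.703 (SD, n = 4) at E6.5 and 13.1% ± 0.423 (SD, n = 3) at E7.5, with overlapping stages. Taken of a total without the miR-290 and miR-302 counts the share was 20.01% to 24.7% at E6.5 and 17.7% to 18.9% at E7.5, a difference of -3.92 percentage points against -0.552, and the stages did not overlap. miR-127-3p, antisense to Rtl1 and the leading miRNA of the region, measured 27975, 25029, 27882 and 24120 CPM at E6.5 and 28722, 31344 and 30744 CPM at E7.5. The E7.5 libraries were all slightly higher, with a log2 fold change of 0.31 ± 0.08, adjusted p = 0.0129, which is under 0.5. miR-409-3p and miR-370-3p overlapped between the stages. The largest fall was that of miR-154-3p, with 154, 164, 502.6 and 399 CPM at E6.5 and 47.3, 68.6 and 37 CPM at E7.5 (-2.46 ± 0.49, adjusted p = 0.00425), and E6.5 replicates 3 and 4 were the highest. miR-543-3p fell with less spread, with 1359, 1508, 2095 and 1813 CPM at E6.5 and 383, 369 and 405 CPM at E7.5 (-2.02 ± 0.19, adjusted p = 5.76e-05).

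Most epithelial miRNAs were not called. The miR-200 family, which holds the epithelial state by repressing Zeb1 and Zeb2, had 2 lower and no higher member of 8 tested, where 17.5% of all miRNAs tested were lower, and its share was 1.22% to 1.31% at E6.5 and 0.944% to 1.001% at E7.5. miR-200a-3p measured 775, 772, 1184 and 1083 CPM at E6.5 and 353, 362 and 326 CPM at E7.5 (-1.35 ± 0.21, adjusted p = 0.00120), and miR-429-3p fell likewise (-1.11 ± 0.24, adjusted p = 0.00594). The more abundant miR-200c-3p, at 6158, 6246, 5994 and 6706 CPM at E6.5 and 5131, 5249 and 5185 CPM at E7.5, did not overlap but was not called (-0.17 ± 0.11, adjusted p = 0.243). In the miR-183 cluster, known from sensory epithelia, 2 of 6 tested were lower and none higher (1 lower without E6.5 replicates 3 and 4). Of the 6, 2 passed the filter through E6.5 alone. miR-96-5p measured 5798, 4435, 6041 and 6098 CPM at E6.5 and 2388, 2636 and 2260 CPM at E7.5 and fell (-1.10 ± 0.14, adjusted p = 3.55e-04). miR-182-3p fell too (-2.09), while miR-182-5p and miR-183-5p had log2 fold changes of -0.30 and -0.34 and were not called.

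Among the remaining families, 3 of 12 tested miR-30 miRNAs were higher and none lower. miR-30d-5p measured 3870, 4624, 3561 and 3794 CPM at E6.5 and 6595, 6441 and 6269 CPM at E7.5 (0.80 ± 0.14, adjusted p = 0.00225). miR-130b-5p measured 1600, 1366, 1436 and 1475 CPM at E6.5 and 3219, 3382 and 3274 CPM at E7.5 (1.27 ± 0.13, adjusted p = 6.74e-05), and its family had 2 higher of 8 tested, or 1 higher without either E6.5 pair. miR-21, miR-221 and miR-222 gave 1 higher and 1 lower of 4 tested. miR-222-3p rose with 384, 302.3, 297.1 and 423 CPM at E6.5 and 946, 1027 and 1090 CPM at E7.5 (1.64 ± 0.20, adjusted p = 3.03e-04), and miR-21a-5p, often raised in growing and inflamed tissue, fell with 859, 953, 1001 and 732 CPM at E6.5 and 430, 318 and 332 CPM at E7.5 (-1.19 ± 0.21, adjusted p = 0.00225). miR-34b-3p, a known target of p53, measured 21, 88.9, 40.2 and 37 CPM at E6.5 and 381, 307 and 525.5 CPM at E7.5 (3.22 ± 0.46, adjusted p = 7.04e-04), and its family had 2 higher of 3 tested, of which 2 passed the filter through E7.5 alone. The miR-181 family had 1 higher of 6, miR-181a-5p (1.26 ± 0.36, adjusted p = 0.0241). The miR-23/27/24 clusters (8 tested), the miR-148 family (5 tested) and miR-29 (1 tested) held no called member, but without E6.5 replicates 1 and 2 the miR-23/27/24 clusters had 1 higher and 2 lower of 10 tested. In the miR-15/16 family 2 of 8 tested were lower (1 without either E6.5 pair), both partner strands. Of the 8, 4 passed the filter through E6.5 alone, miR-16-2-3p among them. miR-15b-3p fell (-1.67 ± 0.55, adjusted p = 0.0422). miR-16-2-3p had no count at E7.5 and was at least 18.6-fold lower, so it could be called in 1 direction only. The abundant miR-16-5p was not called (0.29 ± 0.12, adjusted p = 0.0828).

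The arms of a hairpin did not always move together. The log2 ratio of 5p to 3p counts, which needs no scaling between libraries, was taken for 28 hairpins with at least 50 counts of each arm in every library. It was higher at E7.5 for 12 and lower for 16, and 6 moved by more than 1. For miR-302a the ratio was 1.95, 1.99, 2.28 and 2.08 at E6.5 and 1.07, 1.1 and 0.92 at E7.5, a difference of -1.05, with the 5p arm called lower and the 3p arm not called (0.33 ± 0.21, adjusted p = 0.237). For miR-20a it was 0.73, 1.02, 1.68 and 1.68 at E6.5 and 0.00, -0.32 and -1.02 at E7.5. For miR-294 it moved the other way, from 1.03, 0.73, -0.12 and 0.27 to 2.08, 1.79 and 2.40. The other 3 were miR-293 (-1.73), miR-323 (1.63) and miR-485 (1.52). In an exact two-sided permutation test over the 7 libraries 8 hairpins reached 0.0286, the smallest p that 3 against 4 libraries allow, and none passed after adjustment over the 28 (smallest adjusted p = 0.1).

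Depth was matched to see whether the change rested on the deeper E7.5 libraries. With all libraries thinned to 281158 counts, 415 miRNAs were tested in both fits. Of the 156 called at full depth all but 4 were called in the same direction at equal depth, where 15 more were called, and 244 were called at neither depth. Among the 15 were miR-192-5p (-0.93), let-7g-5p (-2.35), miR-483-5p (1.96) and miR-203b-5p (1.98), not called at full depth. miR-203-3p, with the same counts as miR-203b-5p before thinning, was called at neither depth. In the thinned libraries 78 were higher and 89 lower. All 18 miR-290 miRNAs were then lower, 29 of 33 Sfmbt2 miRNAs were lower, and all 4 tested Hox-cluster miRNAs were higher. miR-10a-5p (7.05), miR-375-3p (7.05), miR-295-3p and miR-92b-3p kept their calls.

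**Figure D5:**
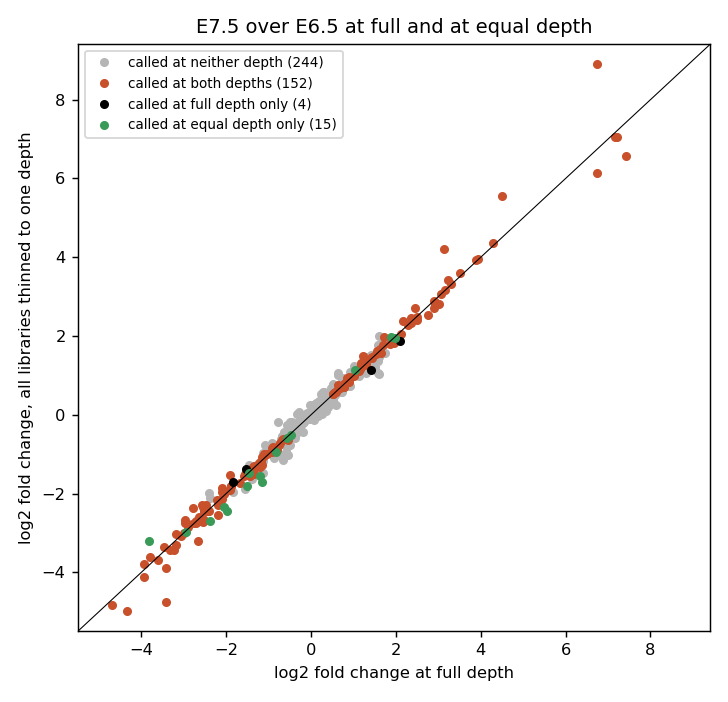
Log2 fold change of E7.5 over E6.5 at full depth (x) against that with every library thinned to 281158 counts (y), for the 415 miRNAs tested in both. Those called at both depths lie along the line of equality, and the 4 called at full depth only, the 15 at equal depth only and the 244 called at neither are marked apart.

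The stage change of the Epi was set against that of the Exe of control embryos (4 libraries of each stage) by testing the difference between both changes, Epi minus Exe, in 1 fit. Of 558 miRNAs tested, 75 (13.4%) differed, 12 (2.15%) with a positive and 63 (11.3%) with a negative difference. The median difference over all 558 was -0.61, so values are to be read against that shift. E6.5 Exe libraries held 65751 to 202093 counts, fewer than any of the Epi libraries here, and with all libraries thinned to equal depth 25 differences were positive and 25 negative of 312. miR-375-3p rose in Epi beyond its change in Exe, where it measured 0 to 345.3 CPM at E6.5 and 195.1 to 902.1 CPM at E7.5 (difference 5.94 ± 0.90, adjusted p = 9.96e-04, and 5.75 at equal depth). miR-92b-3p measured 655 to 2008 CPM in E6.5 Exe and 3525 to 4557 CPM in E7.5 Exe, so it was higher at E7.5 there too, and by less (1.48 ± 0.39, adjusted p = 0.0173). miR-92a-3p measured 51051 to 83010 CPM and 73860 to 89928 CPM (0.73 ± 0.22, adjusted p = 0.0329).

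The fall of miR-295-3p was larger in Epi than in Exe, where it measured 62691 to 91897 CPM at E6.5 and 39568 to 50329 CPM at E7.5 (-1.14 ± 0.19, adjusted p = 0.00189, and -0.70 at equal depth). The Sfmbt2 miRNA miR-466c-3p measured 12440 to 27888 CPM and 16295 to 21320 CPM in Exe, with overlapping stages, against its fall in Epi (-2.61 ± 0.58, adjusted p = 0.00706). The Hox-cluster miRNAs were not called as different between the tissues. miR-10a-5p measured 0 to 15.2 CPM in E6.5 Exe and 134 to 1758 CPM in E7.5 Exe, and the difference was -1.06 ± 1.65, adjusted p = 0.718, with an SE too large to place the 2 tissues apart or together. miR-335-5p and miR-126a-3p, which were not called in Epi, had negative differences of -2.68 ± 0.39, adjusted p = 9.96e-04 and -3.13 ± 0.79, adjusted p = 0.0135, with E7.5 Exe at 4911 to 11724 CPM and 832 to 2040 CPM.

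The same was done for the Epi of Dnmt-null embryos, which lack Dnmt1, Dnmt3a and Dnmt3b, with 4 libraries of E6.5 (45242 to 123169 counts) and 3 of E7.5 (272867 to 488108 counts). This test uses the same 7 control Epi libraries as the one against Exe. Of 474 miRNAs, 45 (9.49%) differed in their stage change, 30 (6.33%) with a positive difference (Dnmt-null minus control) and 15 (3.16%) with a negative one, around a median of 0.41 over all 474. The excess of positive differences was not there with RLE size factors (24 and 23), DESeq2 (42 and 44) or all libraries thinned (17 and 15). Among the negative differences were miRNAs that rose in control Epi. miR-10a-5p measured 0 to 60.0 CPM at E6.5 and 0 to 12.3 CPM at E7.5 there (-9.09 ± 1.56, adjusted p = 0.001003). Its median in E7.5 Dnmt-null Epi was 0 CPM, and control Epi had 1 to 17 counts at E6.5. The fitted -9.09 is therefore not a size of effect. miR-10b-5p measured 40.6 to 690.1 CPM and 32.1 to 153.9 CPM (-5.63 ± 1.22, adjusted p = 0.00674). miR-375-3p measured 44.2 to 469.8 CPM at E6.5 and 458.1 to 2270 CPM at E7.5, a smaller change than in the control (-4.81 ± 0.94, adjusted p = 0.00257). miR-92b-3p measured 4876 to 14743 CPM and 7332 to 9517 CPM, above the control level at E6.5 and below it at E7.5 (-2.89 ± 0.47, adjusted p = 7.72e-04), and miR-351-5p measured 265.2 to 990.2 CPM and 472.8 to 1285 CPM (-2.39 ± 0.56, adjusted p = 0.0116).

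The miR-290 cluster fell in control Epi and not to that degree in Dnmt-null Epi. Its share there was 5.47% to 11.6% at E6.5 and 7.02% to 8.95% at E7.5, lower than control Epi at E6.5 and higher at E7.5. miR-295-3p measured 17484 to 35001 CPM and 21227 to 27584 CPM (1.80 ± 0.27, adjusted p = 6.32e-04). miR-291b-5p measured 1790 to 2652 CPM and 1902 to 3659 CPM, with overlapping stages, against 2142 to 5168 CPM and 87.5 to 170 CPM in the control (5.18 ± 0.54, adjusted p = 1.01e-05). Both differences were called at equal depth as well (1.59 and 4.45). The difference of miR-302b-3p was not called (0.49 ± 0.29, adjusted p = 0.296).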

How the data were processed

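Mature miRNAs of 7 control Epi libraries were taken from the main count table of the series (1504 miRNAs, 474 of them tested). The control Exe and Dnmt-null Epi libraries were used for comparison only. According to the methods and processing notes, the authors used fastp 0.20.1 for trimming and Bowtie 1.2.1.1 for alignment against GRCm38 and the mature miRNAs of miRBase, allowing a few bases of slack at the 3′ end. The deposited values are whole-number read counts per miRNA, not normalized by the authors, who compared groups with DESeq2 1.30.1. 2 columns of an earlier copy of the table belong to no sample and were not used. The counts do not separate strands. In 30 sets (62 entries with at least 100 counts) the counts were identical, and 18 of the 34 identical pairs lie on overlapping hairpins of opposite strands.

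Counts were fitted in edgeR 4.0.16 (R 4.3.3) and tested by quasi-likelihood, with TMM normalization and filterByExpr (count minimum 10), with stage as the only term. The adjusted p is Benjamini-Hochberg over all miRNAs tested, and a call also needs an absolute log2 fold change above 0.5. SE values are derived from the log2 fold change and its F statistic. Differences between tissues or genotypes are interaction contrasts over 15 and 14 libraries. CPM and shares (percent of a library's miRNA counts, with near-identical entries, within 1% or 2 counts in all 7 libraries, counted once) were computed here, with no test of shares. Where no library of a stage exceeds 3 counts, the fold is a bound. No molecular identifiers are named in the sources used here, so bounds cover counting error only. The deeper E7.5 libraries (1623256 to 2325698 counts) give the finer limits. DESeq2 1.42.0 and other settings were tried as alternatives. The fits were tested on simulated data.

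The members and lists were chosen with earlier results of these data known. Named are the 10 largest rises and falls among called, non-overlapping miRNAs with a mean of at least 100 CPM, the 10 most abundant at each stage, up to 3 leading and 2 most changed members of each list, 2 miRNAs named by the study, the 5 largest differences of each interaction and the 5 hairpins with the largest arm difference. This gave 113 miRNAs. Others (of the miR-17-92, miR-290, miR-302 and miR-322 clusters, and those at 0) were named after their values were seen. Sequences and positions come from RefSeq GRCm38.p6, with 1490 of 1504 names matched to a gene and 395 of the 474 tested to a sequence.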

Additional observations from a re-analysis of the deposited data

Results flagged for a closer look

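miR-615-3p at E6.5 was flagged because 1 of the 4 libraries, with 1 count, stood apart from 3 libraries at 0 (gap over range 1.0 on log2(CPM + 1)). 35 sets of values were looked at in this way, and chance alone flags about 1 in 20.

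The stage changes of some named miRNAs differed between Epi and Exe of control embryos by the test of the difference itself. On the log2 scale, Epi minus Exe, the difference was 5.94 for miR-375-3p and 4.71 for miR-92b-5p. For miRNAs of the Sfmbt2 cluster it was -3.97 for miR-669f-3p, -3.85 for miR-669l-5p, -2.85 for miR-669a-3p and miR-669o-3p, which have identical counts, -2.78 for miR-467a-3p and miR-467d-3p, also identical, -2.68 for miR-466n-3p and -2.33 for miR-466h-5p. For miR-672-5p, from an intron of Nexmif on the X chromosome, it was -2.81, and for miR-142a-5p it was -6.99. The fitted values of miR-669o-5p (-8.17), miR-16-2-3p (-8.34), miR-29a-3p (-7.91) and miR-466o-3p (-7.02) each involve a group with no count in any library, so they are not sizes of effect. The E7.5 Epi libraries had no count of miR-669o-5p, miR-16-2-3p and miR-466o-3p, and the E6.5 Exe libraries none of miR-29a-3p. The E6.5 Exe libraries, with 65751 to 202093 counts, are the shallowest of this comparison. With all libraries thinned to equal depth the call was lost for miR-466h-5p (adjusted p = 0.289 by edgeR's quasi-likelihood test), miR-669o-5p (0.125), miR-672-5p (0.0910), miR-669l-5p (0.0898), miR-669o-3p (0.0594) and miR-467d-3p (0.0544), while miR-669a-3p and miR-467a-3p, identical to the last 2 before thinning, were called (0.0315 and 0.0177). The differences that lost the call stayed negative at that depth. They were -1.55 for miR-466h-5p, -5.34 for miR-669o-5p, -2.68 for miR-672-5p, -3.80 for miR-669l-5p, -2.21 for miR-669o-3p and -2.65 for miR-467d-3p. miR-16-2-3p, miR-29a-3p and miR-466o-3p did not pass the filter at that depth and were not tested.

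In the other test, Dnmt-null minus control Epi, the stage change differed by -9.09 for miR-10a-5p, -5.63 for miR-10b-5p, -4.81 for miR-375-3p and -5.22 for miR-351-3p, all higher at E7.5 in control Epi. It differed by 5.18 for miR-291b-5p, by 3.53 for miR-467a-3p and miR-467d-3p and by 2.72 for miR-669a-3p and miR-669o-3p, all lower at E7.5 in control Epi. Fitted values of -10.4 for miR-219b-5p and miR-219a-2-3p, -12.33 for miR-483-5p and 9.20 for miR-669p-3p rest on a group at 0, namely Dnmt-null Epi at E7.5 for miR-219 and miR-483-5p and at E6.5 for miR-669p-3p. The value of miR-10a-5p rests on Dnmt-null Epi at E7.5 with a median of 0 CPM, so it is not a size of effect. At equal depth miR-219b-5p, miR-219a-2-3p and miR-669p-3p did not pass the filter, and the others were called. Both tests share the control Epi libraries.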

How the results depend on the processing

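In 20 alternatives of the stage comparison no called miRNA changed sign, and of the 65 named miRNAs that were called 45 kept the call in every alternative and 20 lost it in at least 1. The number higher was 49 with all 30 Epi libraries in 1 fit, against 80, and the numbers with 1 library left out were 69 to 86 higher and 75 to 83 lower. DESeq2 gave 87 higher and 104 lower. For Epi minus Exe, positive and negative differences numbered 29 and 72 with DESeq2, 25 and 25 with all libraries thinned, and 33 and 116 at an unadjusted p under 0.05, against 12 and 63, with 5 to 20 positive and 25 to 71 negative when 1 library was left out. For Dnmt-null minus control they numbered 42 and 44 with DESeq2, 24 and 23 with RLE size factors, 17 and 15 with thinning, and 74 and 42 at an unadjusted p under 0.05, against 30 and 15, with 13 to 48 and 9 to 29 when 1 library was left out. The cause of these shifts was not tested.

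With the miR-290 and miR-302 clusters left out of the total, the share of Dlk1-Dio3 miRNAs differed between the stages by -3.92 percentage points, against -0.552, and that of endoderm miRNAs by 0.319, against 0.252. The change in shares with 1 library left out ranged from -11.4 to -10.9 percentage points for the miR-290 cluster, 1.53 to 4.35 for miR-302, -2.42 to -1.33 for Sfmbt2, 6.45 to 7.42 for miR-17-92, 0.301 to 0.443 for the Hox-cluster list, 0.485 to 0.636 for miR-322, 0.231 to 0.272 for endoderm and -0.784 to -0.222 for Dlk1-Dio3. The number of hairpins with an arm ratio moved by over 1 was 5 to 7.

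Replicate numbers are shared across stages. The deviations of same-numbered libraries had r = 0.041, 0.079 and -0.10, and those of other numbers -0.105 to 0.057. So few values cannot settle whether the numbers pair the samples. With the replicate number as a block, 65 were higher and 70 lower, 10 and 61 differed between Epi and Exe, and 41 and 13 between Dnmt-null and control.

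Depth limits the low end. At E6.5, 3 counts are worth 8.60 CPM on average, and at E7.5 1.58 CPM, so a miRNA low at E6.5 gives only a bound. The E6.5 pairs, added as alternatives after seeing the data, gave 90 higher and 88 lower without replicates 1 and 2 and 72 and 76 without replicates 3 and 4.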
